A study of Homo sapiens with 2 samples.

Results

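Fatty acid oxidation and the electron transfer flavoprotein (ETF) were followed through 10 genes chosen by name, out of 17687 genes named on the arrays: ETFDH, ETFA, ETFB, CPT1A, CPT2, ACADVL, ACADM, ACADS, HADHA and HADHB. The choice was made with differences of these arrays already known, ETFDH being among the lowest genes of the whole comparison, so the values below describe the genes and nothing was tested on them. The data were whole-transcript microarray values of DLD-1, an established human colorectal cancer cell line. The culture labelled siYY1 had been transfected with Hs_YY1_1, a double-stranded siRNA against the zinc finger transcription factor YY1, and the culture labelled siControl with the AllStars negative control siRNA. Both siRNAs were used at 5 nmol/L with Lipofectamine RNAiMAX, and RNA was isolated after 3 days, so that a transfected siRNA was common to both groups. There was 1 array per group, and only 1 siRNA sequence against YY1 was used, so effects of that sequence on other transcripts cannot be told apart from those of losing YY1.

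Mitochondrial beta-oxidation shortens fatty acids inside the mitochondrial matrix. Long acyl chains enter as carnitine esters, made by CPT1 at the outer membrane and turned back into acyl-CoA by CPT2 at the inner membrane. Acyl-CoA dehydrogenases of different chain length preference then take the first electrons, and the trifunctional protein of HADHA and HADHB carries out the remaining steps on long chains. The electrons of the dehydrogenases pass to the ETF, a dimer of ETFA and ETFB, and from it through ETFDH to ubiquinone in the inner membrane, where the respiratory chain takes them up. ETFDH and the ETF also serve dehydrogenases of branched-chain amino acid, lysine and choline breakdown, and inherited loss of any of the 3 genes causes multiple acyl-CoA dehydrogenase deficiency. The intestinal epithelium can oxidise fatty acids, and colonocytes are known for using butyrate, a short-chain fatty acid.

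With 1 array on each side there is no error between replicates and no p-value, and every comparison below is between 2 arrays. Levels are on a log2 scale, inferred from the range of the deposited values, after the pair had been given equal distributions, and differences are siYY1 minus siControl. In bulk RNA, fewer cells with a transcript and less of it per cell cannot be told apart. A gene was compared when it was protein-coding and its higher value of the 2 arrays reached 7.50, the median of that value, which left 8747 genes with a median difference of -0.01 and quartiles of -0.50 and 0.45. YY1 itself had no probe set among those with a gene name, so its knockdown was not analysed here and the labels alone tell the groups apart. Of 7 named colon epithelial markers, 6 were bright enough to be compared, and they ran from -0.76 for the intestinal factor CDX2 to 0.18 for EPCAM. The general epithelial markers EPCAM, KRT8, KRT18 and CDH1 and also CDX2 were above the brightness minimum on both arrays. The intestinal marker VIL1 was at 7.03 in siYY1 and 7.54 in siControl, and CDX1 was dim at 5.19 in siYY1 and 4.88 in siControl. In contrast, 17 of the 21 named markers of liver, muscle, fat, fibroblasts, endothelium and blood were below the brightness minimum on both arrays. The highest value among these 17 was 6.69, and their differences ran from -0.32 to 1.10. Of the 4 brighter ones, HBA1, whose near-identical copy HBA2 can share signal, was at 2.23. MB was at 6.47 in siYY1, below the brightness minimum, and 7.83 in siControl, a difference of -1.36 whose size is limited by background. Differences past 2-fold thus also occurred in genes of other tissues.

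Of the 10 genes, 9 were bright enough to be compared, and 1 of these, ETFDH, was at least 2-fold lower in siYY1, where 9.37% of all genes compared were at least 2-fold lower. None of the 9 was at least 2-fold higher, where 7.92% of the genes compared were. A single gene of 9 is close to the share among all genes, and since ETFDH was chosen with its difference known nothing is read from this count. The 9 genes lay on both sides of 0, 5 lower and 4 higher, with a median difference of -0.03, against -0.01 over the 8747 genes. Without ETFDH the median of the other 8 was 0.08, and over all 10 genes, with the dim ACADS, it was -0.13.

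**Figure D1:**
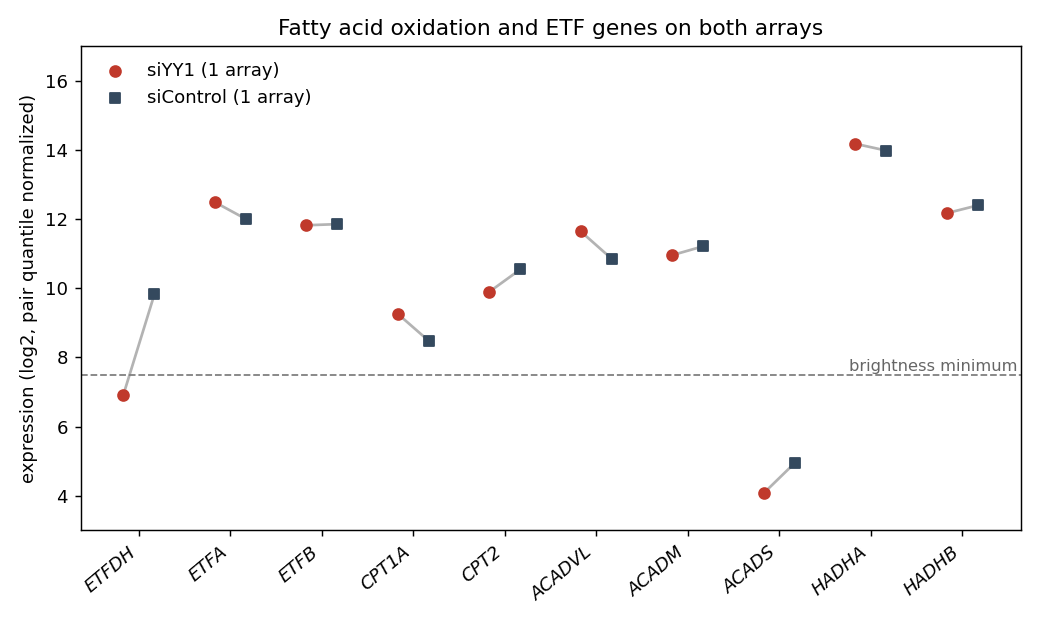
Expression (log2, vertical axis) of each of the 10 genes on the siYY1 array (red circles) and the siControl array (dark squares), 1 array each, joined by a line per gene; the dashed line is the brightness minimum of 7.50. ETFDH has the steepest line, at 6.92 in siYY1 and 9.83 in siControl, ACADS lies under the minimum on both arrays, and the other genes lie less than 1 unit apart.

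ETFDH, the membrane-bound oxidoreductase that hands electrons from the ETF to ubiquinone, was at 6.92 in siYY1 and 9.83 in siControl, a difference of -2.91 or 7.52-fold lower. The siControl value was well above the brightness minimum and the siYY1 value was below it, only a little above the highest of the dim markers of other tissues, so background can hide part of the difference. ETFDH was at place 6 from the lowest among the 8747 genes compared, and of 1360 genes whose mean brightness was within 0.5 of its own, 2 were as low or lower. The SD of the differences among those 1360 genes was 0.77. It was read by 1 probe set, as each of the 10 genes was, so no other probe set of the gene could be set beside it.

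The 2 subunits that pass electrons to ETFDH did not share this difference. ETFA, the alpha subunit, was at 12.49 in siYY1 and 12.00 in siControl, a difference of 0.49, which 23.2% of the genes compared reached or exceeded. ETFB, the beta subunit, was at 11.82 in siYY1 and 11.85 in siControl, a difference of -0.03. The dimer genes were thus within 1.40-fold of their siControl values, while the gene of their electron acceptor was 7.52-fold lower. ETFRF1, which encodes a small regulator of the ETF, was at 0.00, and ETFBKMT, the lysine methyltransferase of ETFB, was dim and at -0.12. The median of the 4 compared genes of this group, ETFDH included, was -0.02.

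The genes beside ETFDH on chromosome 4 were near 0. In the RefSeq gene order of GRCh38.p14 its protein-coding neighbours are C4orf46 and PPID, which encodes a cyclophilin. C4orf46 was at 11.04 on both arrays, a difference of 0.00. PPID was at 13.54 in siYY1 and 13.65 in siControl, a difference of -0.12.

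By the 2 array values alone, the compared genes nearest to ETFDH were TIMM8A, CEP135 and IVD, at distances of 0.21, 0.24 and 0.51 on the log2 scale. TIMM8A encodes an import chaperone of the mitochondrial intermembrane space and was at -3.01. CEP135, a centriole protein gene, was at -2.58. IVD, the acyl-CoA dehydrogenase of leucine breakdown, was at 7.43 in siYY1 and 9.84 in siControl, a difference of -2.41. The siYY1 values of TIMM8A and CEP135, 6.72 and 7.09, and that of IVD were below the brightness minimum, so background limits the size of these differences as it does for ETFDH. With 1 array a group, such likeness rests on 2 values for each gene.

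**Figure D2:**
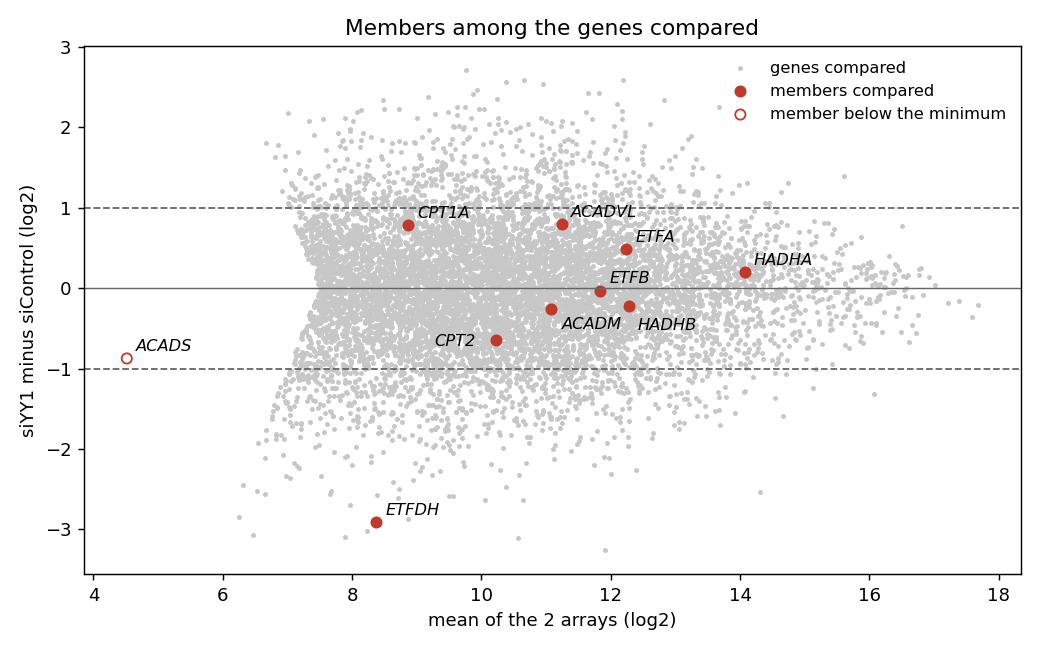
Difference between the arrays (siYY1 minus siControl, log2, vertical axis) against the mean of the 2 arrays (log2, horizontal axis) for the 8747 genes compared (grey) and the 10 genes described here (red, open for ACADS, which is under the brightness minimum); dashed lines mark 2-fold. ETFDH at -2.91 lies at the lower edge of the grey points, and the other 9 lie between the dashed lines.

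The carnitine palmitoyltransferases differed in opposite directions. CPT1A, the outer membrane enzyme that malonyl-CoA inhibits and that sets the rate of long-chain entry, was at 9.26 in siYY1 and 8.47 in siControl, a difference of 0.78 or 1.72-fold higher. CPT2, the inner membrane enzyme, was at 9.90 in siYY1 and 10.55 in siControl, a difference of -0.65 or 1.57-fold lower. Neither reached 2-fold, and 12.6% of the genes compared were as high as CPT1A or higher and 19.3% as low as CPT2 or lower.

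The acyl-CoA dehydrogenases, which differ in the chain length they prefer, were also split. ACADVL, the very long chain enzyme, was at 11.64 in siYY1 and 10.85 in siControl, a difference of 0.80 or 1.74-fold higher. ACADM, the medium chain enzyme, was at 10.96 in siYY1 and 11.21 in siControl, a difference of -0.26. ACADS, the short chain enzyme, was at 4.08 in siYY1 and 4.95 in siControl, below the highest dim marker of other tissues on both arrays, so its difference of -0.87 was not read as a change in level.

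HADHA and HADHB, the alpha and beta subunits of the trifunctional protein, were the genes nearest 0 after ETFB. HADHA, which holds the hydratase and hydroxyacyl-CoA dehydrogenase activities, was at 14.17 in siYY1 and 13.98 in siControl, a difference of 0.20. HADHB, the thiolase subunit, was at 12.17 in siYY1 and 12.39 in siControl, a difference of -0.23. The sign of HADHA depended on the scaling: the deposited values gave 0.04 and centring each array on its median gave -0.03.

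HADHA and HADHB are read in opposite directions from neighbouring starts, and their promoters are printed because they were the only windows of these genes with a match to the longer YY1 sequence. RefSeq promoter windows (GRCh38.p14) of 250 bases before to 50 after a start were at hand for 9 of the 10 genes, with 2 windows each for ACADVL and ETFB, and not for ETFDH. The motif searched was AANATGGC on both strands, in which N is any base. HADHA and HADHB start 307 bases apart, so their windows share 194 bases, and the match in each is the same 8 bases, chr2:26244760-26244767. Capitals mark it, 135 bases before the HADHA start and 179 before the HADHB start. The HADHA window is chr2:26244583-26244882 on the minus strand and the HADHB window chr2:26244689-26244988 on the plus strand, each written 5′ to 3′ along its own gene.
HADHA: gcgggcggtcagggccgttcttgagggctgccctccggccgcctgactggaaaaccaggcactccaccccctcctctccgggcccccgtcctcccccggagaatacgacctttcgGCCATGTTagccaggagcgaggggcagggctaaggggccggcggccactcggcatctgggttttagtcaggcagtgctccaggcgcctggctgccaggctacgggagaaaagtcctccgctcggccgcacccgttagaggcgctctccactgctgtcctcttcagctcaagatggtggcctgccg
HADHB: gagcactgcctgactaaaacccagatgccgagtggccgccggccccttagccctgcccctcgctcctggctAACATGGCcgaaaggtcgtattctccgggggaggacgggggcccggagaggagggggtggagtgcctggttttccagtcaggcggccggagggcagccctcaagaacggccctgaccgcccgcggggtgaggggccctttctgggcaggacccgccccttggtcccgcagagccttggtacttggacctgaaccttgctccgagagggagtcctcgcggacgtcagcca

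This match stood beside differences of 0.20 for HADHA and -0.23 for HADHB. The longer sequence was present in 6.58% of all 35116 windows. Over the 1035 compared genes with it the median difference was 0.01 and 10.4% were at least 2-fold lower. Over the 6351 compared genes that had windows without it these values were -0.02 and 9.57%. At least 2-fold higher were 7.25% of the genes with it and 7.64% of those without it. A match describes letters and is not a measured binding site, and no binding data were used here.

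The shorter core GCCAT, searched on both strands, was present in 37.8% of all windows. Its reverse complement ATGGC is the end of the longer sequence, so every window with the longer sequence also has the core. Among the 10 genes it was matched in HADHA and HADHB, within the site above, and in CPT2, where it begins 34 bases before the start. The CPT2 stretch around it, chr1:53196762-53196822 on the plus strand, is given with the match in capitals, which reads as the reverse complement of the core.
CPT2: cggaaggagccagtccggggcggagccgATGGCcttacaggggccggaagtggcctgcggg

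CPT2 differed by -0.65. Over the 3453 compared genes with the core GCCAT the median difference was -0.0475 and 10.4% were at least 2-fold lower. Over the 3933 compared genes that had windows without it these values were 0.0035 and 9.08%. At least 2-fold higher were 6.86% of the genes with the core and 8.21% of those without it. The nuclear receptor core AGGTCA, bound by PPARs and estrogen-related receptors and searched on both strands, was present in 13.8% of all windows. Neither AGGTCA nor the longer TCAAGGTCA, which contains it and was in 0.353% of windows, was matched in any window of the 9 genes.

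Around the 10 genes, 15 lists of related genes were described, with 146 of their 163 genes named on the arrays and 105 bright enough to be compared. Of these 105, 96 were not among the 10 genes. Their median difference was -0.02, and 2 were at least 2-fold lower (2.08%, against 9.37% of the genes compared) and 8 at least 2-fold higher (8.33%, against 7.92%). The shares of 9.37% and 7.92% hold only for the pair given equal distributions. With the values as deposited, 5 of the 96 were past 2-fold lower and 8 higher, beside 1067 and 536 of the 8747 genes compared. With each array centred on its median, 8 of the 96 were lower and 5 higher, beside 1250 and 440 of the 8747.

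**Figure D3:**
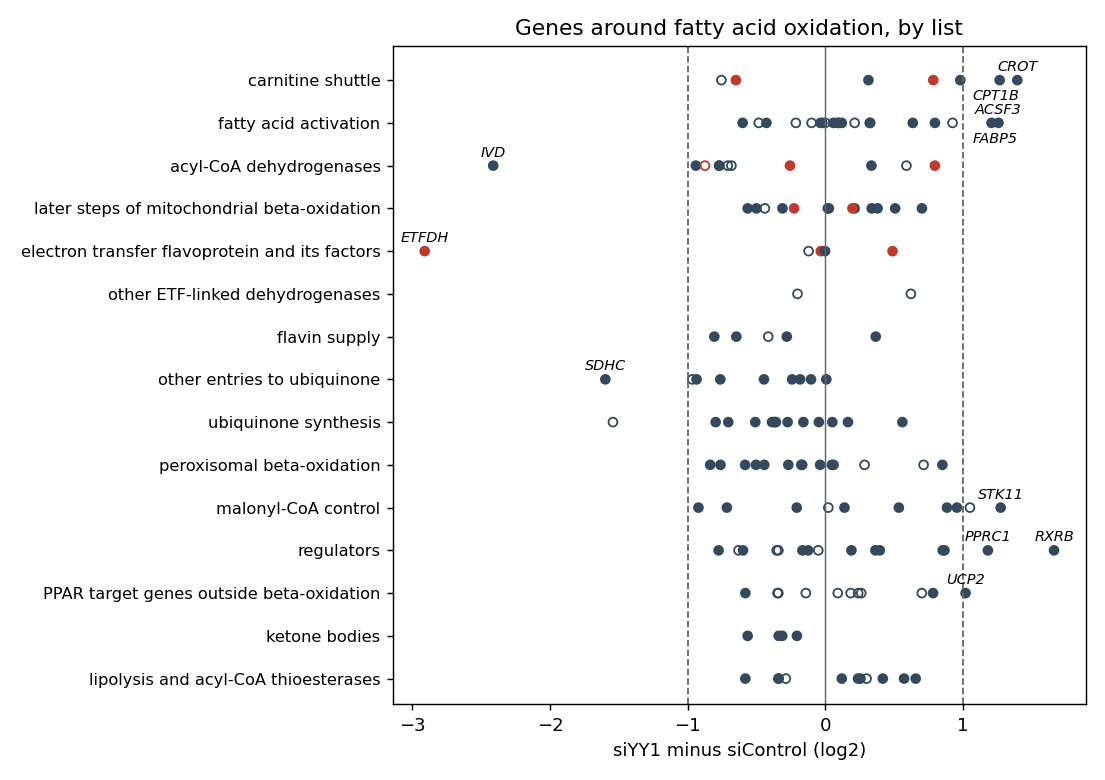
Difference between the arrays (siYY1 minus siControl, log2, horizontal axis) of each named gene in the 15 lists (rows); filled points are genes compared, open points are below the brightness minimum, red points are the 10 genes described here and dashed lines mark 2-fold. ETFDH, IVD and SDHC are the compared genes past 2-fold on the left, and CROT, CPT1B, ACSF3, FABP5, STK11, PPRC1, RXRB and UCP2 those on the right.

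Other genes of carnitine handling were mostly higher in siYY1. Over the 6 compared genes of this list, CPT1A and CPT2 included, the median was 0.88. Of the 6, 5 were above 0, as were 4332 of all 8747 genes compared. At least 2-fold higher were 2, where 7.92% of the genes compared were. With so few genes chosen by name, nothing is read from these counts. CROT, the peroxisomal carnitine octanoyltransferase, was at 8.14 in siYY1 and 6.74 in siControl, a difference of 1.40 whose size is limited by background, since the siControl value was below the brightness minimum. CPT1B, the muscle form of the outer membrane enzyme, was at 9.71 in siYY1 and 8.44 in siControl, a difference of 1.27, a value that is uncertain because transcripts of the neighbouring CHKB can run into it. SLC22A5, the plasma membrane carnitine transporter, was at 0.98, while SLC25A20, which exchanges acylcarnitine across the inner membrane, was dim and at -0.76.

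In fatty acid uptake and activation the median over 11 compared genes was 0.32. ACSF3, a mitochondrial malonyl-CoA synthetase, was at 10.02 in siYY1 and 8.76 in siControl, a difference of 1.26. FABP5, a fatty acid binding protein, was at 1.21, below 2-fold at 0.98 with median centring, and is uncertain because its near-identical pseudogenes can share signal. The lowest were the transporters SLC27A2, at 12.77 in siYY1 and 13.37 in siControl, a difference of -0.60, and SLC27A3 at -0.43. The acyl-CoA synthetase ACSL1 was at 0.33, while ACSL4 and ACSL5, at 0.06 and 0.12, were below 0 with the values as deposited, at -0.07 and -0.04.

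The acyl-CoA dehydrogenase list had a median of -0.51 over 6 compared genes. It was -0.81 over 7 genes with median centring or loess, and -0.71 over 11 without a brightness minimum. Of the 6 compared genes 4 were lower, where 50.4% of all genes compared were below 0. Only IVD, given above, was past 2-fold, where 17.3% of all genes compared were. ACAD9, a dehydrogenase that also acts in complex I assembly, was at 10.54 in siYY1 and 11.48 in siControl, a difference of -0.94, and was past 2-fold lower with the deposited values, at -1.08. ACAD8, the isobutyryl-CoA dehydrogenase of valine breakdown, was at -0.77 and ACADSB, of isoleucine breakdown, at 0.33. ETFDH and IVD were thus both low in siYY1. The other compared dehydrogenases of branched-chain amino acids that give their electrons to the ETF were split. ACAD8 was lower, by less than 2-fold, and ACADSB was not lower.

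The list of later steps of mitochondrial beta-oxidation held no compared gene past 2-fold, where 17.3% of all genes compared were. With so few genes nothing is read from this count. The 12 compared genes of the list ran from -0.56 for ACAT1, the acetoacetyl-CoA thiolase, to 0.70 for ECHDC2, with a median of 0.11. ECHDC2 and ECHDC1, at 0.03, are not established enzymes of this pathway, and the median was not recomputed without them. The matrix enzymes ECHS1, a short chain hydratase, and HADH, a hydroxyacyl-CoA dehydrogenase, were at 0.21 and 0.34, and the thiolase ACAA2 was at -0.31. The median turned to -0.02 with the deposited values and -0.10 with median centring, where the median of all genes compared moved to -0.13 and -0.20.

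At the ubiquinone end, 6 of 7 compared genes for other enzymes that feed ubiquinone were below 0, with a median of -0.24. Of all genes compared 50.4% were below 0, and nothing is read from a count over so few genes. The list as first written also held SUOX, the sulfite oxidase, which passes its electrons to cytochrome c, and with it the median of 8 genes was -0.34. SDHC, a membrane anchor of succinate dehydrogenase, was at 10.27 in siYY1 and 11.87 in siControl, a difference of -1.60. The flavoprotein subunit SDHA was at 0.01, and SQOR, which oxidises sulfide, was at -0.94 and past 2-fold lower as deposited, at -1.06. Genes of ubiquinone synthesis had a median of -0.27 over 11 compared genes. None of the 11 was past 2-fold, where 17.3% of all genes compared were, and nothing is read from so few. They ran from COQ9, a lipid-binding factor of that pathway, at -0.80 to PDSS1, a subunit of the side chain synthase, at 0.56. COQ9 was past 2-fold lower with median centring, at -1.01, and the dim COQ8B was at -1.54. For flavin supply, needed for the cofactor of the ETF and ETFDH, the median of the 4 compared genes was -0.46. Of these 3 were lower, a count too small to set against the 50.4% of all genes compared. SLC52A2, a riboflavin transporter, was at -0.81 and at -1.01 with median centring. FLAD1, the FAD synthase, was at -0.65, SLC25A32, the mitochondrial folate and FAD carrier, at -0.28 and the riboflavin kinase RFK at 0.37.

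Peroxisomal beta-oxidation, which shortens very long chains, had a median of -0.27 over 9 compared genes. None of the 9 was past 2-fold, where 17.3% of all genes compared were, and nothing is read from so few. They ran from AMACR, a racemase of branched acyl-CoA, at -0.76 to PECR, an enoyl-CoA reductase, at 0.05. The list as first written also held HACL1 and PHYH, enzymes of peroxisomal alpha-oxidation, at -0.84 and 0.85, and its median of 11 genes was -0.27 too. HACL1 was past 2-fold lower with median centring, at -1.04. In the list of malonyl-CoA control, with a median of 0.34 over 8, STK11, the kinase upstream of AMPK, was at 11.33 in siYY1 and 10.06 in siControl, a difference of 1.27. ACACA, which makes malonyl-CoA, was at 0.96, while the AMPK catalytic subunit PRKAA1 was at -0.92 and past 2-fold lower as deposited, at -1.07. The other compared AMPK subunits were split, with PRKAB1 at 0.88, PRKAG1 at 0.53, PRKAB2 at 0.14 and PRKAG2 at -0.72. The 4 ketone body genes compared were all below 0, where 50.4% of all genes compared were, and nothing is read from so few. They ran from ACAT1 at -0.56 to OXCT1, which activates acetoacetate, at -0.21. The 8 genes of lipolysis and thioesterases had a median of 0.25. Their range was from ACOT2 at -0.58, which can share signal with its near-identical copy ACOT1, to ACOT7 at 0.66.

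The regulators of these pathways had a median of 0.36 over 11 compared genes. RXRB, a partner receptor of PPARs, was at 11.95 in siYY1 and 10.29 in siControl, a difference of 1.66. PPRC1, a relative of the PGC-1 coactivators, was at 1.18 and below 2-fold at 0.97 with median centring. PPARG was at 0.85, ESRRA, the estrogen-related receptor alpha, at -0.60 and SIRT3, the mitochondrial deacetylase, was the lowest at -0.78. PPARA, PPARGC1A and PPARGC1B, known as drivers of fatty acid oxidation in liver and muscle, were all below the brightness minimum. Of PPAR target genes outside beta-oxidation only 3 were bright enough, and UCP2, an inner membrane carrier, was at 8.02 in siYY1 and 7.00 in siControl, a difference of 1.02 that was below 2-fold with median centring or loess and whose siControl value was under the brightness minimum.

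**Figure D4:**
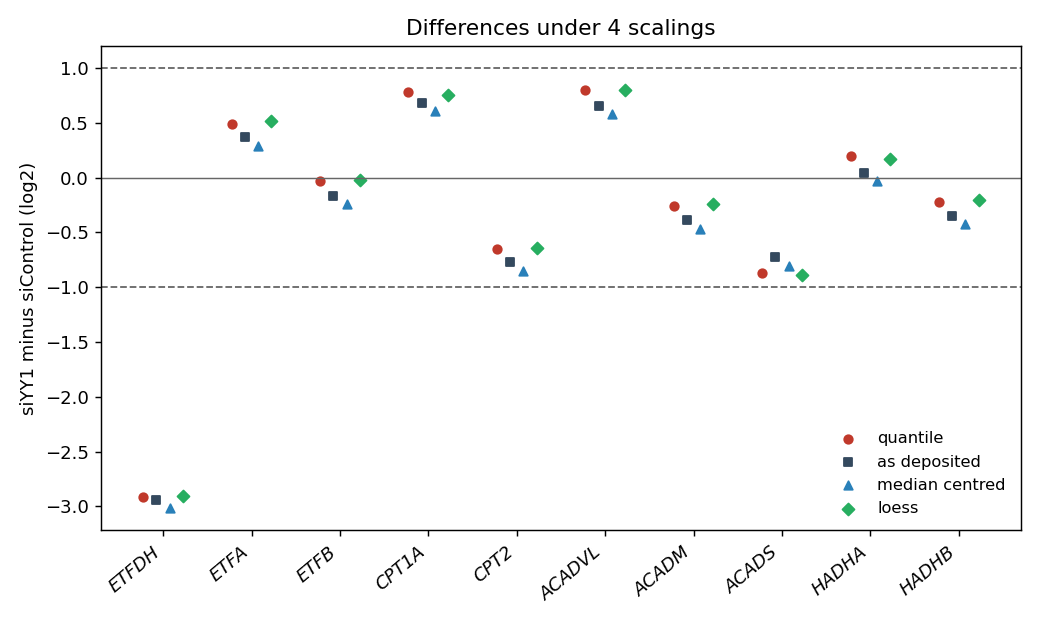
Difference between the arrays (siYY1 minus siControl, log2, vertical axis) of each of the 10 genes under 4 scalings of the pair: quantile normalization, values as deposited, median centring and loess on brightness; dashed lines mark 2-fold. ETFDH stays between -3.02 and -2.90, HADHA crosses 0 with median centring, and none of the other genes crosses 0 or 2-fold.

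Across these scalings ETFDH ran from -3.02 to -2.90, and it was the only one of the 10 genes past 2-fold under each of them. ETFA ran from 0.29 to 0.51, CPT1A from 0.61 to 0.78, ACADVL from 0.58 to 0.80 and CPT2 from -0.85 to -0.64. ETFB ran from -0.24 to -0.02, ACADM from -0.47 to -0.24, HADHB from -0.43 to -0.21 and HADHA from -0.03 to 0.20, and the dim ACADS ran from -0.89 to -0.73. Over the genes compared, 45.8% of those past 2-fold were higher in siYY1 with quantile normalization, 33.4% with the values as deposited and 26.0% with median centring.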

How the data were processed

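RNA from 1 siYY1 and 1 siControl culture of DLD-1 cells was converted to sense-strand cDNA and biotin-labelled for a GeneChip array (per the labels' protocols). For each of 21448 probe sets the authors deposited 1 value per array. From its range, 2.51 to 17.9, the scale of the deposited values was inferred to be log2; the steps before deposit, such as background correction, are not stated here. The deposited medians were 6.93 in siYY1 and 6.86 in siControl. Because percentiles of the arrays differed by over 0.05, the pair was quantile normalized.

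The platform annotation gave a symbol, never several, to 17709 probe sets, and 3739 were unnamed here. Symbols were updated by gene ID to RefSeq GRCh38.p14, where all 17687 genes matched, and the probe sets of a gene were averaged. The brightness minimum was the median, over all named genes, of the higher value of the 2 arrays. No source used here gives the build of the array design, so gene coordinates are not printed. Promoter sequences are those of RefSeq, GRCh38.p14.

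The 10 genes, the lists, the motifs and the rules were chosen with earlier results of these data known. Named from each list were compared genes past 2-fold, up to 4 per direction, and those that set its range, besides the 3 compared genes nearest to ETFDH. Further list members, the neighbours of ETFDH and genes near 0 were named after their values were seen. No test was possible with 1 array per group. Genes were counted at 2-fold, and lists were described by median and counts. The computation was checked on simulated data with planted differences and much less spread than these arrays showed. That check covers the code and not the 2-fold calls of these data. Alternatives were other scalings, the brightest probe set, other brightness minimums and thresholds of 1.5-fold and 3-fold. Leaving out ETFDH, SUOX, or PHYH and HACL1 was chosen after seeing the data. The software was Python 3.11.15 with numpy 2.4.6, pandas 2.3.3, statsmodels 0.14.6 and matplotlib 3.10.9.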

Additional observations from a re-analysis of the deposited data

How the results depend on the processing

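With 1 array per group the number of arrays limits every value, and dim values such as ACADS and the siYY1 value of ETFDH are limited by background. A difference or median was taken as moved when it changed by over 0.39, the median gap between probe sets of the same gene, and a count when it changed by over 1.5 times. The median of the 9 compared genes turned to 0.082 without ETFDH and to 0.082 with the minimum at the 75th percentile, which left 6 genes; both left 0 genes at least 2-fold lower. At 1.5-fold 2 were lower and 2 higher. HADHA turned to -0.032 with median centring. Over the genes compared, median centring gave 1250 lower and 440 higher, 1.5-fold gave 1909 and 1699, 3-fold gave 213 and 165, and the 75th percentile gave 381 and 365. Later steps of beta-oxidation turned to -0.024 as deposited and -0.10 with median centring, and regulators to -0.051 without a brightness minimum. With the 75th percentile the ETF list turned to 0.23 and flavin supply to 0.043 (2 genes each), the carnitine shuttle moved to 0.31 (1 gene) and malonyl-CoA control to 0.88 (5 genes). These changes at the 75th percentile follow fewer genes being compared. Those at 1.5-fold, at 3-fold and without ETFDH follow from the changed threshold or the gene left out. Without a brightness minimum 15 regulators were included in place of 11. As deposited and with median centring, the median of all genes compared was -0.13 and -0.20. Causes beyond these settings were not tested. Of 134 alternative values 112 kept their direction and stayed within these bounds, which for counts include the 1067 lower and 536 higher of the values as deposited. The brightest probe set is left out of this number, since each gene described has 1 probe set and could not change. Leaving out SUOX or PHYH and HACL1 was chosen after seeing the data. No paired analysis was possible because each group had 1 array.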
